A study of Homo sapiens with 6 samples.

Results

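Splicing removes introns from precursor messenger RNA, and the genes described here encode much of the machinery that does so. They are the 84 genes of the 11314 in the table whose symbols begin with SNRP, HNRNP, SRSF, SF3A, SF3B, PRPF, U2AF, or LSM and a digit, a rule that reads the symbol alone, although the family was picked with earlier results of these data known. They fall into 8 roles: 7 Sm ring proteins, 4 proteins specific to the U1 and U2 particles, 13 LSm proteins, 9 subunits of SF3A and SF3B, 4 U2AF genes, 13 PRPF genes, 12 SR proteins and 22 hnRNP proteins. Of the 84, 83 had a mean of at least 0.5 FPKM over all libraries and were tested. FPKM counts fragments per kilobase of gene relative to the total mapped in each library, so levels of different genes can be set side by side per length.

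Messenger RNA came from SNU-668, a gastric cancer cell line, in a subline made resistant to erastin, a compound that sets off ferroptosis by blocking cystine import. Cells received a short hairpin RNA, and 3 libraries have titles naming SPIN1, a histone reader, while 3 have titles naming NC, the control hairpin. The genotype labels say the reverse: the samples titled SPIN1 are entered as WT and those titled NC as SPIN1 knockdown, and the design text names another gene, ALKBH3. Groups were taken from the titles, so higher and lower always refer to the SPIN1-titled libraries relative to the NC-titled ones. Both groups carry a hairpin and share the resistant background, and the prefix RLS3 found in all titles is not explained. No label says that the libraries of a group are separate cultures, so the p-values measure the spread between these libraries, which may be technical.

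The spliceosome is built from small nuclear ribonucleoproteins (snRNPs), each a small nuclear RNA with a set of proteins. A ring of Sm proteins surrounds the RNA of the U1, U2, U4 and U5 particles, and a related ring of LSm proteins binds U6. U1 recognises the start of an intron, U2AF and then the U2 particle with SF3A and SF3B recognise its end and branch point, and PRPF proteins act in the tri-snRNP and in later rearrangements. SR proteins and hnRNP proteins bind the transcript itself and shift which sites are used, often in opposite directions.

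The letters CCGGAAG were found in 7 of 10 promoters of SNRP genes, and 7 windows, of SNRP genes and of genes with no call, are printed to show where they lie. They are from RefSeq (GRCh38.p14), which differs from the hg19 build of the expression table, and each holds the 120 bases before the first listed start, written 5′ to 3′ on the strand of the gene. Capitals mark matches to these letters, a core that ETS factors bind, or to the reverse complement CTTCCGG. The first 5 genes were higher in the SPIN1-titled libraries, while U2AF2 and PRPF6 were not past the threshold.
SNRPA1 promoter (chr15:101295249-101295368, minus strand): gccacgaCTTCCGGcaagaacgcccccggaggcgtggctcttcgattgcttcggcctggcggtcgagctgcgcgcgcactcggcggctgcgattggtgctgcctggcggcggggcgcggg
SNRPG promoter (chr2:70293459-70293578, minus strand): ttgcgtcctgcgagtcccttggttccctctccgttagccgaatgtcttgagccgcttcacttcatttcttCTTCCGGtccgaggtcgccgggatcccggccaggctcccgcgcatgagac
SNRPB promoter (chr20:2470790-2470909, minus strand): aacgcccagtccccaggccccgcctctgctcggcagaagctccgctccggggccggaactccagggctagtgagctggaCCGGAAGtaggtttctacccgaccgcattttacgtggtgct
SNRPB2 promoter (chr20:16729906-16730025, plus strand): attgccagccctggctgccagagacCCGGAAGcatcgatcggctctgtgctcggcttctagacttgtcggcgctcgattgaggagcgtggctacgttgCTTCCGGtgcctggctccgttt
SNRPF promoter (chr12:95858832-95858951, plus strand): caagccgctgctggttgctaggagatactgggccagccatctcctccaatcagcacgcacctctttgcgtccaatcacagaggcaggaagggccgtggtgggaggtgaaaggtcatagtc
U2AF2 promoter (chr19:55654915-55655034, plus strand): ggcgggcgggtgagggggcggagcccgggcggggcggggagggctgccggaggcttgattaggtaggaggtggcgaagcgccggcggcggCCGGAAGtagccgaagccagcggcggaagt
PRPF6 promoter (chr20:63981012-63981131, plus strand): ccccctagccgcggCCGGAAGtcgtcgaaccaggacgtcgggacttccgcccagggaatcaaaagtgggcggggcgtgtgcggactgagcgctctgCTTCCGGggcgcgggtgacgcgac
The match lay 113 bases before the start in SNRPA1, 50 in SNRPG, 41 in SNRPB, and both 95 and 22 in SNRPB2. SNRPF had no match in its 250 bases, whereas U2AF2 had a match 30 bases before its start and PRPF6 had matches 106 and 24 bases before, so genes with and without a call carried these letters.

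A promoter entry was found for 72 members. The members without an entry, whose promoters were not searched, included HNRNPA1, LSM1, LSM6, LSM14A, PRPF3, PRPF4B, PRPF39, SF3B3, SNRPD1, SRSF2 and U2AF1L5. Over the 250 bases before the start, on both strands, CCGGAAG was in 22 of the 72 (30.6%). It was found in 17.3% of the 8678 tested genes with an entry and in 8.82% of all 27305 promoters. By role, it was in 6 of 8 SF3A and SF3B promoters and 3 of 21 hnRNP promoters. Of the 24 members called higher that had an entry, 8 held it (33.3%), close to the share over all members, and SF3A and SF3B held it often with 1 call among 9 genes. The E2F-type letters TTTNNCGC were in 11 of 72 members (15.3%) against 9.43% of tested genes, with 7 of 21 hnRNP promoters and 0 of 10 SNRP promoters. CCAAT was in 44.4% of members against 35.4% of tested genes, with 14 of 21 hnRNP promoters, and TGCGCA, part of an NRF1 site, in 10 of 72 (13.9%) against 12.2%. The E-box CACGTG was in 7 of 72 (9.72%) against 9.32%, and AAGATGGCG, the YY1 letters, in 0 of 72 against 1.13%. Motifs were counted separately and their matches may overlap, and a match describes letters in a window and says nothing of binding.

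Of the 7 Sm ring genes 6 were higher, as were 3 of the 4 SNRP genes of proteins specific to U1 and U2 and 7 of 21 hnRNP genes. Of 12 SR protein genes 3 were higher and 3 lower. By limma's test, with a threshold of 0.05 on the Benjamini-Hochberg adjusted p, 26 of the 83 genes were higher (31.3%) and 6 lower (7.23%), beside a background of 17.3% higher and 10.3% lower over all 11061 genes tested. At an unadjusted p under 0.05 the background was 24.3% higher and 15.9% lower. The split moved with the scaling: quantile normalization gave 18 higher and 9 lower, median scaling 20 and 8, and scaling to nuclear genes 17 and 7. Leaving out 1 NC-titled library, replicates 1 to 3 in turn, gave 13, 8 and 14 higher and 4, 2 and 4 lower. Over all genes these fits gave 1440, 1128 and 1270 higher and 875, 641 and 679 lower. Leaving out 1 SPIN1-titled library gave 26, 11 and 12 higher and 5, 2 and 4 lower. Over all genes those gave 2045, 1265 and 1368 higher and 1251, 736 and 872 lower. Without NC-titled replicate 2 the member share called higher (8 of 83) was no larger than that of all genes (1128 of 11061). Of the 32 calls, omitting NC-titled replicates 1 to 3 in turn lost 16, 23 and 16, and omitting SPIN1-titled replicates 1 to 3 lost 6, 19 and 16. In 34 members all 3 SPIN1-titled libraries lay above all 3 titled NC (background 27.2%), in 11 they lay below (background 18.8%), and in 38 the groups overlapped. The median log2 difference, taken on log2(FPKM + 1), was 0.24 over the members and 0.05 over all genes. The differences ran from -0.84 to 1.14, members called higher were 1.27-fold to 2.37-fold higher in mean FPKM, and members called lower were 1.34-fold to 2.02-fold lower. Each listed gene reached 0.50 FPKM as the mean of at least 1 group, so SRSF12, at the top of that last range, is in it only through the NC-titled libraries. That condition favours a lower value, so its call, counted among the 6 lower, carries no weight as a test. In all 32 called members the groups did not overlap. The calls rest on the same values, so this adds no support to them, and the share over all called genes was not computed. In RNA from whole cultures, more cells with an active gene and more RNA per cell cannot be told apart.

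Many of these genes were abundant, and 57 had a mean of at least 10 FPKM. Among these 21 were higher and 1 was lower, against 20.7% higher and 13.1% lower over the 3642 genes of that level. Summed over all members, the level was 2549 ± 89.7 FPKM in the SPIN1-titled libraries and 2099.7 ± 10.0 in the NC-titled ones (SD, n = 3 each), a ratio of 1.21. As a share of the FPKM of nuclear genes, the members held 1.16%, 1.18% and 1.20% in the NC-titled libraries and 1.33%, 1.37% and 1.45% in the SPIN1-titled ones. The groups did not overlap in this share.

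**Figure D1:**
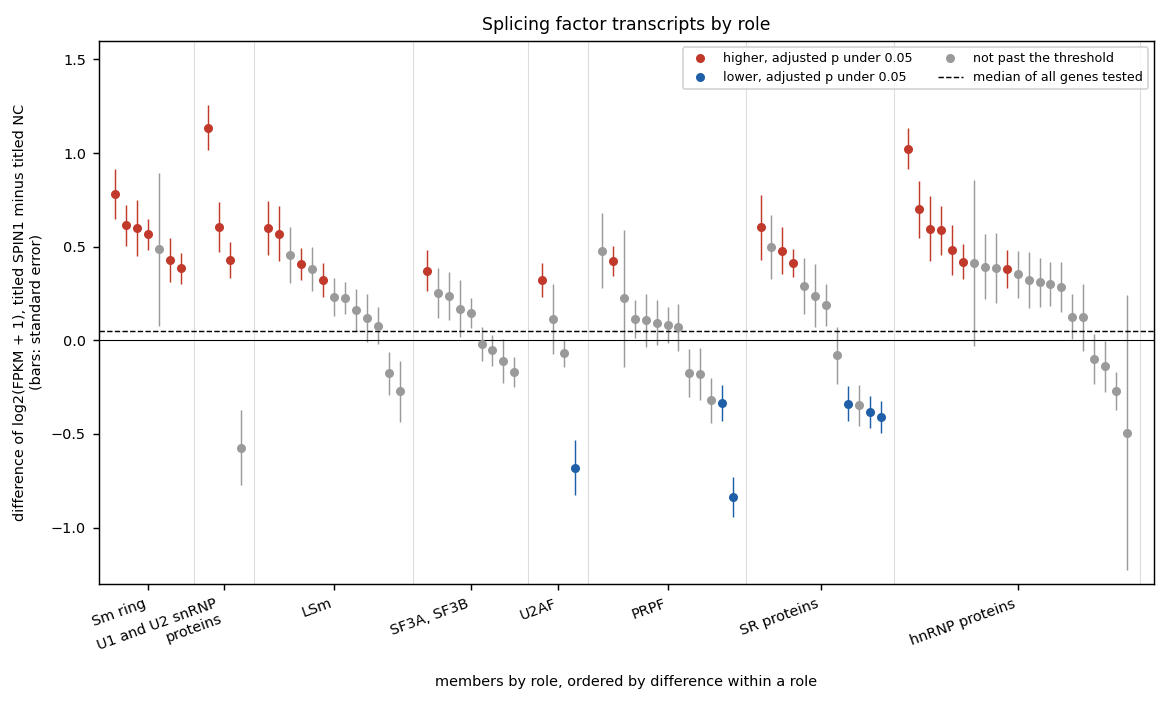
Log2 difference (titled SPIN1 minus titled NC, log2(FPKM + 1)) of each of the 83 tested members on the vertical axis, grouped by role on the horizontal axis, with calls in colour, bars for the standard error and the median of all genes as a dashed line. The Sm ring genes lie between 0.38 and 0.78, the U1 and U2 proteins reach 1.14 with SNRPA1, and PRPF3 is lowest at -0.84.

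SPIN1 was at 0.322, 6.18 and 7.97 FPKM in the NC-titled libraries and at 0.324, 0.629 and 2.49 FPKM in the SPIN1-titled ones, so the groups overlapped and the target did not check the titles (log2 difference -1.17, limma adjusted p = 0.307). The NC-titled library of replicate 1 had the least SPIN1 of its group. Without it the log2 difference was -2.03 (adjusted p = 0.0301), and with weights per library it was -1.86 (adjusted p = 0.0248). Of the 6 fits without 1 library only that 1 passed (adjusted p up to 0.601). The log2 difference was in the direction of the titles in all 6 (-2.03 to -0.65). Because the library was singled out by its SPIN1 level, the fit without it cannot decide between titles and genotype labels. Mitochondrially encoded genes took 34.3%, 38.4% and 35.2% of the FPKM in the NC-titled libraries and 32.8%, 34.9% and 32.2% in the SPIN1-titled ones. Of the epithelial markers, KRT8 ran from 24.5 to 33.6 FPKM in the NC-titled libraries and from 50.3 to 90.3 in the SPIN1-titled ones, KRT18 from 65.1 to 79.6 and from 89.3 to 149, and EPCAM from 0.313 to 0.790 and from 0.740 to 1.44. CDH1, KRT19 and CLDN4, and the markers of other cells PTPRC, PECAM1, COL1A1 and COL1A2, were not analysed here. VIM, a mesenchymal marker that many cancer lines express, was at 69.8 to 76.4 and 123 to 138 FPKM, and the part of these markers in the splicing results was not tested.

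**Figure D2:**
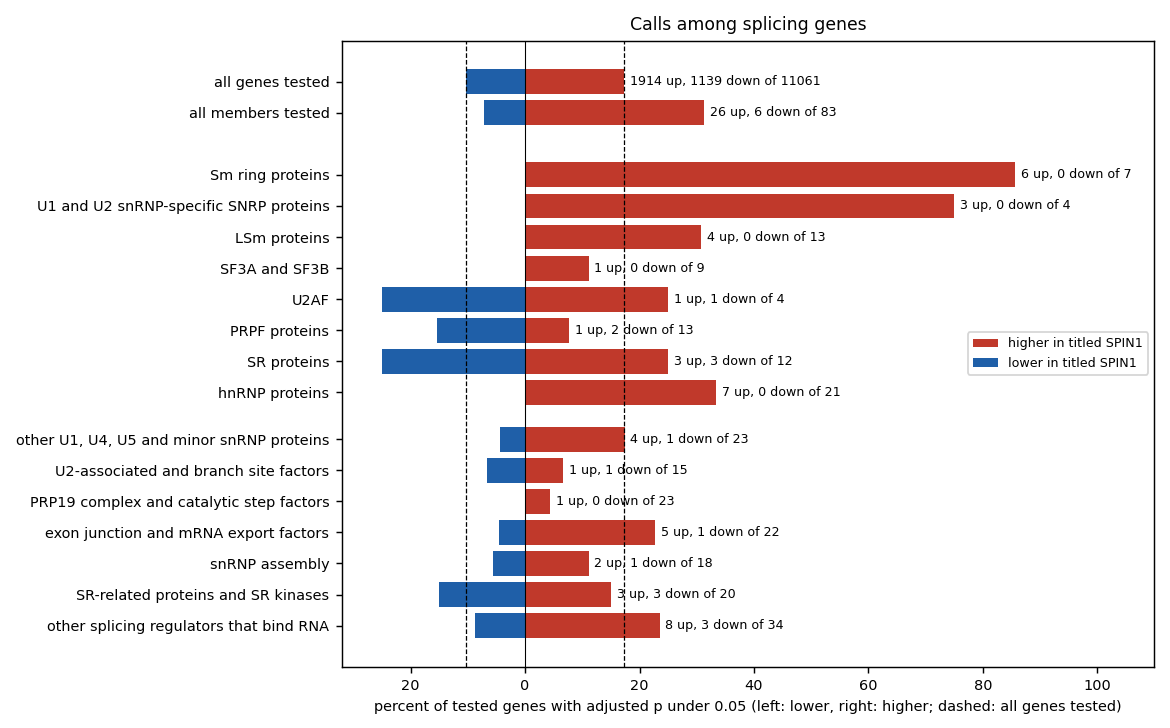
Percent of tested genes called higher or lower (adjusted p under 0.05, horizontal axis) in all genes, in the members, in each role and in the other splicing lists, with dashed lines at the shares over all genes; lower is drawn to the left. Sm ring genes show 6 of 7 higher and none lower, and the SR proteins show 3 higher and 3 lower of 12.

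Most Sm ring transcripts were higher: limma called 6 of 7 genes higher and 0 lower, beside 17.3% and 10.3% of all genes. The counts were also 6 and 0 at an unadjusted p under 0.05, beside 24.3% and 15.9%. The fold over all 7, including SNRPD2, which was not called, ran from 1.32 to 1.74. Summed over the 7, the level was 534 ± 41.7 FPKM in the SPIN1-titled libraries and 354 ± 14.9 in the NC-titled ones, a ratio of 1.51. Of these sums, SNRPB alone held 311 and 203 FPKM. The 7 proteins assemble in equal number on the RNA, yet their transcripts differed by 27.5-fold in mean FPKM between the most and least abundant.

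SNRPB, which encodes the SmB and SmB′ proteins, was the most abundant member of all. Its NC-titled libraries held 233, 186 and 191 FPKM and its SPIN1-titled libraries 328, 316 and 289 FPKM. All SPIN1-titled values were above the highest NC-titled one, with means of 311 ± 19.7 and 203 ± 26.0 FPKM (SD, n = 3 each) and a log2 difference of 0.61 (SE 0.11, limma adjusted p = 0.00821). SNRPF, the SmF protein, was at 22.1, 22.8 and 28.4 FPKM titled NC and at 37.7, 42.5 and 47.7 titled SPIN1. Its log2 difference of 0.78 (SE 0.13, limma adjusted p = 0.00748) was the highest of the ring. SNRPG, the SmG protein, was at 23.0, 23.5 and 25.8 FPKM titled NC and 36.3, 35.7 and 36.5 titled SPIN1, 3 nearly equal values, with a log2 difference of 0.57 (SE 0.08, limma adjusted p = 0.00447).

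SNRPB, SNRPF and SNRPG passed the threshold whichever of the 6 libraries was omitted. SNRPE, the SmE protein, differed by 0.38 (adjusted p = 0.0154) and passed in 4 of those 6 fits, SNRPD1, the SmD1 protein, by 0.60 (adjusted p = 0.0269) in 2, and SNRPD3, the SmD3 protein, by 0.43 (adjusted p = 0.0376) in 2. SNRPD3 also missed it under each other scaling (adjusted p 0.0534 to 0.0792). SNRPD2, the SmD2 protein, was at 33.2, 57.2 and 31.0 FPKM titled NC and at 100.5, 40.3 and 40.6 titled SPIN1. Its groups overlapped through the NC-titled library at 57.2 FPKM, and 1 SPIN1-titled library stood far above its group. The difference of 0.49 (SE 0.41) was not past the threshold (limma adjusted p = 0.420). It turned to -0.06 with both libraries numbered 1 left out and to -0.11 with weights per library. SNRPE and SNRPG have processed pseudogenes in the genome, and how reads were divided between such copies is not known here.

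**Figure D3:**
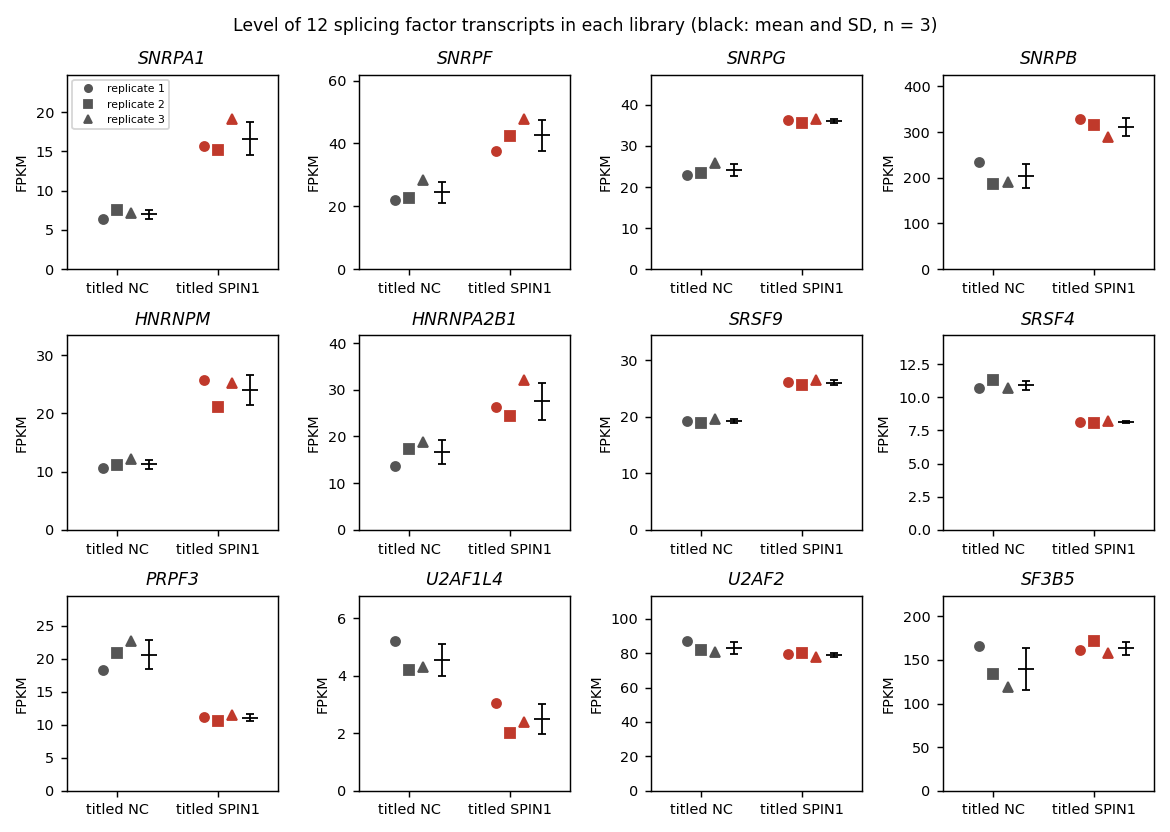
FPKM of 12 members (vertical axes, linear from 0) in each of the 6 libraries, by title and with a symbol for each replicate, with the group mean and SD in black. SNRPA1, HNRNPM, SNRPB, SNRPF and SNRPG sit higher in all 3 SPIN1-titled libraries, and PRPF3 sits lower in all 3.

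Among the proteins specific to U1 and U2, limma called 3 of 4 higher and 0 lower, beside 17.3% and 10.3% of all genes. The counts were 3 and 1 at an unadjusted p under 0.05, beside 24.3% and 15.9%. SNRPA1, the U2 A′ protein (hg19 chromosome 15, 101821715 to 101835487, minus strand), had the largest difference of all the members. Its NC-titled libraries held 6.39, 7.54 and 7.08 FPKM and its SPIN1-titled libraries 15.7, 15.2 and 19.1 FPKM. With means of 16.6 ± 2.13 and 7.004 ± 0.576 FPKM (SD, n = 3 each), it was 2.37-fold higher, and the lowest SPIN1-titled value was above every NC-titled value. It had a log2 difference of 1.14 (SE 0.12, limma adjusted p = 0.00141), and the adjusted p was at most 0.00849 whichever library was omitted. SNRPC, the U1 C protein, was at 30.8, 27.9 and 25.0 FPKM titled NC and 49.1, 36.8 and 43.3 titled SPIN1 (log2 difference 0.60, adjusted p = 0.0179). SNRPB2, the U2 B″ protein, was at 32.1, 35.9 and 34.7 and at 42.1, 47.9 and 49.5 FPKM (log2 difference 0.43, adjusted p = 0.0188). In neither gene did the groups overlap. With 1 library omitted, SNRPC passed in 3 of 6 fits (adjusted p up to 0.0623) and SNRPB2 in 1 (adjusted p up to 0.0674), and SNRPB2 missed it under quantile normalization (adjusted p = 0.0521).

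SNRPA, the U1 A protein, went the other way by value but its groups overlapped. It was at 36.4, 29.9 and 23.2 FPKM titled NC and 19.1, 23.7 and 16.0 titled SPIN1, a log2 difference of -0.57 (SE 0.20) that was not past the threshold (limma adjusted p = 0.0762). With 1 library omitted it passed in 1 of 6 fits, without NC-titled replicate 3 (-0.74, adjusted p = 0.0484), and adjusted p reached 0.192 in the others. The summed level of the 4 genes was 126 ± 2.19 FPKM titled SPIN1 and 99.0 ± 8.14 titled NC, a ratio of 1.27.

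In the LSm group limma called 4 of 13 genes higher and 0 lower (7 higher and 0 lower at an unadjusted p under 0.05, beside 24.3% and 15.9% of all genes), with a median log2 difference of 0.23. LSM2, LSM3, LSM4 and LSM7, all subunits of the ring that binds U6, were the ones called. LSM2 was at 37.4, 34.6 and 34.1 FPKM titled NC and 44.5, 47.4 and 49.7 titled SPIN1 (log2 difference 0.41, SE 0.09, adjusted p = 0.0152). LSM4, the most abundant of the group, was at 57.8, 53.4 and 54.1 and at 97.8, 67.6 and 89.3 FPKM (log2 difference 0.60, SE 0.14, adjusted p = 0.0232). LSM3 was at 11.3, 11.9 and 13.0 and at 14.7, 20.8 and 20.3 FPKM (log2 difference 0.57, SE 0.15, adjusted p = 0.0307), and LSM7 differed by 0.32 (adjusted p = 0.0402). In LSM4 and LSM3 the SPIN1-titled libraries spread more widely than the NC-titled ones, without reaching them.

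The remaining U6 ring genes did not pass: LSM6 had all SPIN1-titled libraries above those titled NC (adjusted p = 0.0524), as had LSM5 (adjusted p = 0.0629). So had LSM8, with a log2 difference of 0.16 (adjusted p = 0.322), and 27.2% of all genes showed this order. LSM6 was low, at 0.639 to 1.01 FPKM titled NC and 1.29 to 1.64 titled SPIN1. LSM5 passed in 1 of 6 fits with 1 library omitted, without SPIN1-titled replicate 1 (adjusted p = 0.0216), and adjusted p reached 0.170 in the others. LSM1, which replaces LSM8 in the cytoplasmic ring that acts in messenger RNA decay, had overlapping groups and a log2 difference of 0.12. LSM10 and LSM11, which take the place of Sm proteins in the U7 particle that processes histone messages, were at 0.08 and 0.23 and not past the threshold. LSM14A and LSM12, which lie outside these rings, were at -0.27 and -0.18 with overlapping groups. With 1 library omitted, LSM2 passed in 3 of 6 fits, LSM4 in 2, LSM3 in 1 and LSM7 in none, with adjusted p up to 0.115 for LSM7. LSM7 missed it under each other scaling (adjusted p 0.0733 to 0.0787) and LSM3 when scaled to nuclear genes (adjusted p = 0.0520). The summed LSm level was 269.5 ± 19.0 FPKM titled SPIN1 and 218 ± 5.06 titled NC, a ratio of 1.24.

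SF3A and SF3B, the complexes of the U2 particle that hold the branch point, held 1 gene called higher and 0 lower among 9 by limma. The shares over all genes were 17.3% and 10.3%. At an unadjusted p under 0.05 the counts were also 1 and 0, beside 24.3% and 15.9% of all genes. SF3B2 was at 6.55, 7.39 and 8.05 FPKM titled NC and 10.0, 9.03 and 10.2 titled SPIN1, a log2 difference of 0.37 (SE 0.11, limma adjusted p = 0.0456) that was lost whichever library was omitted (adjusted p up to 0.127) and with each other scaling (adjusted p 0.0589 to 0.0807). SF3B5, the most abundant, was at 166, 134 and 119 FPKM titled NC and 161, 172 and 158 titled SPIN1 (log2 difference 0.24, adjusted p = 0.212). With 1 library omitted it passed in 1 of 6 fits, without NC-titled replicate 1 (0.37, adjusted p = 0.0435), and adjusted p reached 0.493 in the others. SF3B1, the subunit most often mutated in blood cancers, differed by 0.17 (adjusted p = 0.453). SF3A1 lay below in all 3 SPIN1-titled libraries, but its difference of -0.17 was not past the threshold (adjusted p = 0.167).

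Of the 4 U2AF genes limma called 1 higher and 1 lower, beside 17.3% and 10.3% of all genes. U2AF2, the large subunit that binds the polypyrimidine tract, was at 87.0, 81.6 and 80.8 FPKM titled NC and 79.4, 80.1 and 77.8 titled SPIN1 (log2 difference -0.07, adjusted p = 0.517). U2AF1L4, a paralogue of the small subunit, was at 5.20, 4.19 and 4.29 and at 3.05, 2.02 and 2.39 FPKM, 1.83-fold lower, and its difference of -0.68 (SE 0.14, limma adjusted p = 0.0156) was lost without the library titled SPIN1 replicate 2 (adjusted p = 0.0518). U2AF1, the small subunit that reads the end of the intron, was at 5.86, 5.62 and 6.15 and at 7.77, 7.42 and 7.58 FPKM, a log2 difference of 0.32 (SE 0.09, adjusted p = 0.0390). The call was lost whichever library was omitted (adjusted p up to 0.149) and with each other scaling (adjusted p 0.0636 to 0.0694). U2AF1 and U2AF1L5 are listed at nearly the same hg19 interval on chromosome 21 (44513066 to 44527697 and 44513066 to 44527693), so reads may be shared and both values are uncertain. U2AF1L5 had overlapping groups and a log2 difference of 0.11 (adjusted p = 0.689).

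Of 13 PRPF genes 1 was higher (7.69%) and 2 were lower (15.4%), beside 17.3% and 10.3% of all genes. The other 10 were not past the threshold, as were 8008 of all 11061 genes tested. PRPF3, a protein of the U4/U6 particle (hg19 chromosome 1, 150293925 to 150325671, plus strand), had the most negative difference of all the members. It was at 18.3, 20.9 and 22.7 FPKM titled NC and at 11.2, 10.6 and 11.6 titled SPIN1, 1.86-fold lower, with a log2 difference of -0.84 (SE 0.11, limma adjusted p = 0.00265) that passed whichever library was omitted. PRPF31, which joins it in the tri-snRNP, was higher: 43.4, 38.6 and 40.3 FPKM titled NC against 54.2, 54.9 and 55.8 titled SPIN1, a difference of 0.42 (SE 0.08, adjusted p = 0.0105), lost without the library titled NC replicate 2 (adjusted p = 0.0553).

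PRPF40B, which resembles a U1-associated yeast protein, was at 1.13, 1.08 and 1.26 FPKM titled NC and 0.821, 0.743 and 0.571 titled SPIN1 (log2 difference -0.33, adjusted p = 0.0401), and passed in 1 of the 6 fits without 1 library. PRPF6, the most abundant of the group and a bridge within the tri-snRNP, had overlapping groups at 65.7, 65.0 and 71.3 and at 69.6, 50.3 and 60.3 FPKM (adjusted p = 0.358). PRPF8, which lies at the catalytic centre, differed by -0.18 (adjusted p = 0.386). PRPF38B, not past the threshold, had 1 SPIN1-titled library at 11.5 FPKM beside 3.80 and 4.14, and its log2 difference of 0.23 turned to -0.22 without that library, replicate 2. The summed PRPF level was 245 ± 9.15 FPKM titled SPIN1 and 243 ± 11.3 titled NC.

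SR proteins were called in both directions, 3 higher and 3 lower of 12 (25% each), beside 17.3% higher and 10.3% lower over all genes. Higher was SRSF9, at 19.3, 18.9 and 19.6 FPKM titled NC and 26.1, 25.6 and 26.4 titled SPIN1 (log2 difference 0.41, SE 0.08, limma adjusted p = 0.00980), lost without the library titled NC replicate 2 (adjusted p = 0.0531). SRSF1, which binds exonic enhancers, was at 15.8, 22.7 and 19.5 and at 25.5, 27.9 and 36.1 FPKM (log2 difference 0.60, adjusted p = 0.0439), and SRSF3, which also acts in messenger RNA export, differed by 0.48 (adjusted p = 0.0301). SRSF1 missed the threshold under each other scaling (adjusted p 0.0509 to 0.0688) and SRSF3 under median scaling (adjusted p = 0.0541).

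Lower were SRSF4, SRSF8 and SRSF12. SRSF4 was at 10.7, 11.3 and 10.7 FPKM titled NC and 8.11, 8.05 and 8.17 titled SPIN1 (log2 difference -0.38, SE 0.08, adjusted p = 0.0174). SRSF12 was at 0.910, 0.991 and 0.956 and at 0.565, 0.466 and 0.385 FPKM, 2.02-fold lower (log2 difference -0.41). It is listed only through the group where it was high, which favours a lower value, so its call carries no weight as a test. SRSF8 was at 3.24, 3.21 and 3.10 and at 2.16, 2.29 and 2.49 FPKM (log2 difference -0.34, adjusted p = 0.0411). SRSF6, the most abundant SR transcript, lay below in all 3 SPIN1-titled libraries, at 48.1, 39.0 and 48.1 FPKM against 54.6, 57.9 and 59.9, and missed the threshold (adjusted p = 0.0544) while passing it under each other scaling (adjusted p 0.0241 to 0.0365). With 1 library omitted, SRSF4 and SRSF3 passed in 3 of 6 fits, SRSF1 in 2 and SRSF8 in none (adjusted p up to 0.132).

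For the hnRNP proteins limma called 7 of 21 tested genes higher and 0 lower (9 higher and 1 lower at an unadjusted p under 0.05, beside the same 24.3% and 15.9%), with a median log2 difference of 0.35. HNRNPM, which binds GU-rich sequence (hg19 chromosome 19, 8509651 to 8553998, plus strand), held 10.6, 11.1 and 12.1 FPKM titled NC and 25.7, 21.1 and 25.2 titled SPIN1, 24.0 ± 2.53 against 11.3 ± 0.752 FPKM (SD, n = 3 each), 2.13-fold higher. Its log2 difference of 1.02 (SE 0.11, limma adjusted p = 0.00147) passed whichever library was omitted. HNRNPA2B1, a protein of the core hnRNP particle, was at 13.7, 17.3 and 18.7 and at 26.3, 24.3 and 32.0 FPKM (log2 difference 0.70, SE 0.15, adjusted p = 0.0168) and also passed in all 6 such fits, though not with both libraries numbered 1 left out (adjusted p = 0.0565). HNRNPA3, a relative of HNRNPA1, was at 28.3, 29.8 and 34.6 and at 40.9, 46.8 and 53.4 FPKM (log2 difference 0.59, adjusted p = 0.0173) and passed in 3.

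The remaining hnRNP genes called higher were HNRNPL, which binds CA-rich sequence (0.42, adjusted p = 0.0191), HNRNPA1 (0.38, adjusted p = 0.0346), HNRNPLL (0.48, adjusted p = 0.0399) and HNRNPR (0.60, adjusted p = 0.0428), values being log2 differences. With 1 library omitted, HNRNPL passed in 2 of 6 fits, HNRNPLL and HNRNPR in 1 and HNRNPA1 in none. HNRNPA1, HNRNPLL and HNRNPR also missed it when scaled to nuclear genes (adjusted p 0.0643 to 0.0660), and HNRNPA1 and HNRNPR under quantile normalization (adjusted p = 0.0851 and 0.0536). HNRNPA1 has many processed pseudogenes and a near copy, HNRNPA1L2, which was at 1.32, 0.444 and 2.00 FPKM titled NC and 4.45, 1.07 and 1.11 titled SPIN1. HNRNPAB, the most abundant, was at 96.1, 109.9 and 106 and at 112, 141 and 149 FPKM, without overlap, and was not past the threshold (log2 difference 0.35, adjusted p = 0.0809). With 1 library omitted it passed in 1 of 6 fits, without SPIN1-titled replicate 1 (0.48, adjusted p = 0.0136), and adjusted p reached 0.206 in the others. HNRNPH1 lay below in all 3 SPIN1-titled libraries (-0.27, adjusted p = 0.0925), and passed as lower under median scaling (-0.34, adjusted p = 0.0305) and quantile normalization (-0.35, adjusted p = 0.0401).

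HNRNPH2, on chromosome X, had the widest spread within a group of any tested member: 14.2, 15.0 and 4.97 FPKM titled NC and 3.76, 3.51 and 23.3 titled SPIN1, a ratio of 6.66 between the highest and lowest library titled SPIN1. The median of that ratio over the 83 tested members, taking the wider group of each, was 1.32, and 5 of them reached 2. The library titled SPIN1 replicate 3 stood above the others of its group in the hnRNP genes, with a mean deviation of 0.33 on the log2 scale beside 0.04 and 0.07. It was also highest of its group over all members (0.184 beside 0.053 and 0.055) and over all genes (0.069 beside 0.015 and 0.024). Without this library 3 hnRNP genes were called higher. Over the 6 fits with 1 library omitted that count ran from 2 to 8. The summed hnRNP level was 673 ± 81.9 FPKM in the SPIN1-titled libraries and 538 ± 32.1 in the NC-titled ones, a ratio of 1.25. The readthrough locus HNRNPUL2-BSCL2, not tested for its low mean, was at 0.0183, 0.0203 and 0.0222 FPKM titled NC and 0.516, 0.280 and 1.18 titled SPIN1. It is listed only through the group where it was high, so no test is given, and it spans the locus of HNRNPUL2, with which it may share reads.

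**Figure D4:**
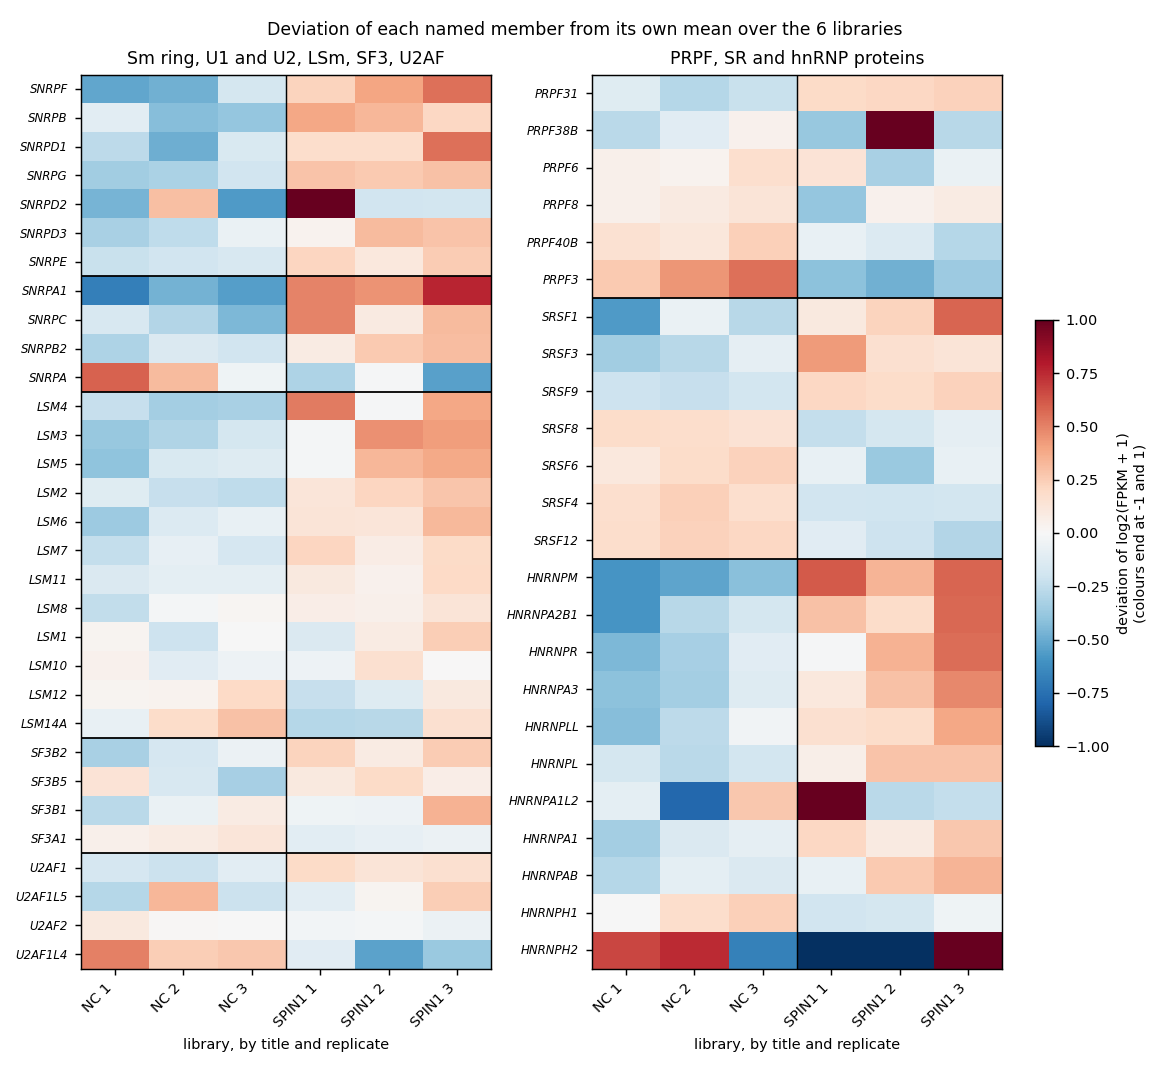
Deviation of log2(FPKM + 1) from each gene's mean over the 6 libraries (colour), with the members whose values the text describes in rows by role and the libraries in columns, NC titles left and SPIN1 titles right. SNRPA1 and HNRNPM are lower in all NC-titled libraries and higher in all titled SPIN1, PRPF3 is the reverse, and HNRNPH2 varies within both groups.

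Rank correlations across the 83 members, given as a description, were 0.20 between the log2 difference and the mean FPKM and -0.17 between the log2 difference and the length of the locus, beside -0.004 and -0.03 over all genes. The points share the same 6 libraries.

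Splicing genes outside these families, in 7 lists with 155 tested genes, showed 24 higher (15.5%) and 10 lower (6.45%), beside the same 17.3% and 10.3% over all genes, with a median log2 difference of 0.07. Among further snRNP proteins 4 of 23 were higher and 1 lower. SNRNP25, of the minor spliceosome, was at 2.93, 2.65 and 2.26 FPKM titled NC and 8.02, 9.54 and 8.89 titled SPIN1, 3.38-fold higher (log2 difference 1.44, limma adjusted p = 0.000697). PPIH, a cyclophilin of the tri-snRNP, was 2.10-fold higher (log2 difference 0.98, adjusted p = 0.00109). Of the 15 factors of the branch site, 1 was higher and 1 lower: SF1, the branch point binding protein, was lower in all 3 SPIN1-titled libraries, 32.8 ± 0.803 FPKM where the NC-titled ones had 43.6 ± 0.396 (SD, n = 3 each; log2 difference -0.40, adjusted p = 0.00982), and DDX46, a helicase, differed by 0.40 (adjusted p = 0.0380), lost under each other scaling (adjusted p 0.0518 to 0.0567).

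Of 23 PRP19 and catalytic factors limma called 1 higher and 0 lower, beside 17.3% and 10.3% of all genes. At an unadjusted p under 0.05, 5 were higher and 1 lower, beside 24.3% and 15.9%. The called gene was CWC15, a component of the catalytic spliceosome (log2 difference 0.39, adjusted p = 0.0483). Its call was lost under each other scaling (adjusted p 0.0724 to 0.0828). CDC5L was not past the threshold (0.32, adjusted p = 0.0757). In the exon junction and export list 5 of 22 were higher and 1 lower, led by ALYREF, an export adaptor, 2.25-fold higher (log2 difference 1.15, adjusted p = 0.000629), and THOC3, of the THO complex (1.06, adjusted p = 0.00256). In the assembly list, whose products load the Sm ring onto RNA, 2 of 18 were higher and 1 lower, with GEMIN6 at 0.50 (adjusted p = 0.0291) and GEMIN8 at -0.66 (adjusted p = 0.0226), both parts of the SMN complex. With 1 library omitted, GEMIN6, GEMIN8 and DDX46 each passed in 1 of 6 fits, CWC15 in none and SF1 in 5. The adjusted p reached 0.0762 for GEMIN8 and 0.138 for DDX46. SNRNP25, PPIH, ALYREF, THOC3, RBM25, RBM39 and EWSR1 passed in all 6.

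Of 20 SR-related proteins and SR kinases 3 were higher and 3 lower (15% each), beside 17.3% and 10.3% of all genes. RBM25 differed by 0.76 (adjusted p = 0.00695) and RBM39 by -0.63 (adjusted p = 0.00585). Of 34 other regulators 8 were higher and 3 lower, among them EWSR1, an RNA-binding protein of the FET family (0.67, adjusted p = 0.00489). MBNL2, a muscleblind protein counted among the 3 lower, was 3.64-fold lower (log2 difference -0.88). It is listed only through its NC-titled values, which favours a lower value, so its call carries no weight as a test.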

How the data were processed

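Poly(A)-enriched, stranded, paired-end libraries from 6 samples were sequenced, per the labels' protocols. Per the file headers, the authors deposited FPKM values for each gene. Per the submitters' processing notes, FastQC, cutadapt, HISAT2, StringTie and hg19 were used, without stated versions. The depth is unknown because no counts were at hand, and no counting intervals were computed. In the deposited table the higher group mean of each gene was at least 0.500 FPKM.

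Groups and replicate numbers came from titles. Of 11314 genes, the 11061 whose mean reached 0.5 FPKM were tested with limma 3.58.1 in R 4.3.3 (statmod 1.5.0), with trend and robust moderation, on log2(FPKM + 1), which understates changes of low genes. Adjustment was by Benjamini and Hochberg across every tested gene, and 0.05 was the threshold. A fold is a ratio of mean FPKM. The code was tested on simulated data.

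The members, roles, lists and tests were chosen with earlier results of these data known. Of 159 list symbols, 155 were found in the table. Named genes were, in each role, the 3 called members with the smallest adjusted p and the most abundant member, or the 2 most abundant where none passed, all members called lower where there were at most 8, and in each list the 2 genes with the smallest adjusted p. Other genes were named after their values were seen. Promoters were matched by symbol; 72 of 84 members had an entry, and 64 of those ended in a GENCODE transcript of the gene. Alternatives were other pseudocounts, filters, scalings and fits, and leaving out libraries. Matplotlib 3.10.9 under Python 3.11.15 drew the figures.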

Additional observations from a re-analysis of the deposited data

How the results depend on the processing

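The depth of the libraries is unknown, and 3 libraries per group limit the precision. Over the alternatives, the named genes kept direction and side of the threshold in 979 results, lost the threshold in 168 and gained it in 29, and 6 turned sign, none of them a called gene: HNRNPA1L2 was at -0.046 without SPIN1-titled replicate 1 (-0.046 to 0.65 with 1 library omitted), PRPF38B at -0.22 without SPIN1-titled replicate 2 (-0.22 to 0.47), HNRNPH2 at 0.097 and SNRPD2 at -0.056 with both libraries numbered 1 left out, and SNRPD2 at -0.11 and U2AF1L5 at -0.092 with weights per library. Leaving out each library in turn gave 8 to 26 members higher and 2 to 5 lower, and 1128 to 2045 genes higher and 641 to 1251 lower; the fewest members, 8 higher and 2 lower, came without the library titled NC replicate 2. With both libraries numbered 1 left out, 21 members were higher and 4 lower. Requiring also a log2 difference of 1 or more left 2 members higher and 0 lower, and 430 genes higher and 216 lower. With weights per library, which ranged from 0.314 to 3.57, 37 members were higher and 12 lower, and 3106 genes higher and 2304 lower.

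Scaling shifted the split of calls. Over all genes, quantile normalization gave 1596 higher and 1570 lower, median scaling 1638 and 1428, and scaling to nuclear genes 1611 and 1281; over the members these gave 18 and 9, 20 and 8, and 17 and 7. The cause of each change was not tested. The replicate block gave 30 members higher and 5 lower and 2048 genes higher and 1251 lower, with 27 of the 32 calls shared. Same-numbered libraries correlated at 0.216, 0.055 and 0.148 in their deviations, and differently numbered ones at -0.211 to 0.076. NC-titled replicate 2 correlated best with SPIN1-titled replicate 3 (0.076). No label says what a shared number means, and these few correlations cannot decide whether same-numbered libraries form pairs.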
